A study of Mus musculus with 10 samples.

Results

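The expressed Zfp genes are the 242 protein-coding genes of the deposited expression table with a symbol of the form Zfp plus a number and a mean level of at least 2 FPKM over the 10 libraries. FPKM is fragments per kilobase of gene, scaled to the reads of the library, a level corrected for gene length and depth. The table held 306 Zfp-numbered protein-coding models among 42465 gene models, and the other 64 fell below the level. Members were chosen by their mean FPKM over all libraries, so the levels are a description. The difference between genotypes was not part of the rule, but a member can pass through the group where it is high.

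The series measured RNA in mouse neural tube explants that contain neural crest cells, cut from embryos on embryonic day 9.5 and cultured for 4 days. The 2 groups were explants labelled Ednrb-/-, for the gene of endothelin receptor B, and WT explants, with 5 biological replicates each. Ednrb encodes the receptor that neural crest-derived melanoblasts, the precursors of pigment cells, use to respond to endothelin 3. The medium of all explants held 20 nM EDN3, the ligand of the receptor, and 10% fetal bovine serum, so both genotypes met the ligand. The allele of the Ednrb mutation, the strain and the number of embryos behind a library were not given in the sources used here. Whole explants were profiled, so every value is an average over neural tube cells, neural crest cells and whatever grew out of them, and fewer cells of a type cannot be told apart from less RNA per cell.

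Most Zfp genes encode proteins with a row of C2H2 zinc fingers, small folds held together by a zinc ion that read DNA a few bases at a time. The largest subgroup also carries a KRAB box, a short domain near the start of the protein that binds the co-repressor Trim28. Trim28 brings in the histone methyltransferase Setdb1 and HP1 proteins, which pack the bound DNA into silent chromatin, above all at transposable elements and imprinted genes. KRAB zinc finger genes multiplied by tandem duplication and lie in clusters on the chromosomes, and the function of most single members is not known. Other Zfp genes share only the name: Zfp36 (tristetraprolin) has CCCH fingers that bind AU-rich messenger RNA and speed its decay. Of the 242 genes, 201 were in the zf-C2H2 family of the deposited annotation, and 236 had at least 1 C2H2 finger pattern in the longest reading frame of their GENCODE M21 transcripts. The 6 with 0 such patterns were Zfp36, Zfp330, Zfp365, Zfp503, Zfp703 and Zfp839, named here after their counts were seen. A KRAB box was found in 125 members, by the deposited Pfam entry, by a pattern in the reading frame, or by both. Only 140 of the 242 members had any Pfam entry. The pattern found 72 of the 88 boxes given by Pfam entry. Members with no KRAB box found can therefore include KRAB genes that were missed.

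RefSeq promoter sequences, from 250 bases before to 50 bases after a transcript start in GRCm38.p6, were matched by symbol for 200 of the 242 members. Those of the 3 members below are shown because Zfp605 and Zfp811 had the largest rises in Ednrb-/- explants and Zfp36 the largest fall. Capitals mark the letters CCGGAAGT (an ETS-type motif) in Zfp605, CCAAT (the CCAAT box) in Zfp811, and the reverse complement of GGGCGG (a GC box) in Zfp36.
Zfp605, chr5:110109842-110110141, plus strand: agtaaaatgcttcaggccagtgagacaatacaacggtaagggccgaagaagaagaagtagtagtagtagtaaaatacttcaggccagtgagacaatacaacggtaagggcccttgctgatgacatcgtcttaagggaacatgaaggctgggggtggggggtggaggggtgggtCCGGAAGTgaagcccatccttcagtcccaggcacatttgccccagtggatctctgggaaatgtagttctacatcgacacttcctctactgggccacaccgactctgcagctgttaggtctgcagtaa
Zfp811, chr17:32809882-32810181, minus strand: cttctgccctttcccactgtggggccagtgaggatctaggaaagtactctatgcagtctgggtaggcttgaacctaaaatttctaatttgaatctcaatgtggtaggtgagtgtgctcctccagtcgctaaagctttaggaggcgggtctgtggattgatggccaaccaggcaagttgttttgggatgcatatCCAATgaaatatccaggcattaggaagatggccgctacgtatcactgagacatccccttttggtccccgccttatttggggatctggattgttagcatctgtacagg
Zfp36, chr7:28379179-28379478, minus strand: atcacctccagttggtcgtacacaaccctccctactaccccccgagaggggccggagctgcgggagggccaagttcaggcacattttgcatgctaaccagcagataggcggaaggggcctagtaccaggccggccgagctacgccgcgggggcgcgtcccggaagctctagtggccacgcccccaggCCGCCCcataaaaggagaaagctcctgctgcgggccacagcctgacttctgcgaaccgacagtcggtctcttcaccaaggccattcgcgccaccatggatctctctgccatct
The 3 promoters differ in CG dinucleotides, with 7 in Zfp605, 5 in Zfp811 and 21 in Zfp36.

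A set of 6 motifs was searched on both strands of all 32851 RefSeq mouse promoters of the same length, of which 245 belonged to members. CCGGAAGT was found in 11.8% of member promoters and in 3.89% of all promoters. An NRF1-type motif, a GC-rich near-palindrome, was found in 11% of member promoters and 4.6% of all. AAGATGGCG, a YY1-type motif, was in 3.67% of member promoters and 1.40% of all. CCAAT stood in 53.6% of the promoters of KRAB members, 36.7% of those of other members and 37.4% of all promoters. GGGCGG stood in 40.0% of the promoters of KRAB members, 61.7% of those of other members and 35.7% of all promoters. The median promoter held 13 CG dinucleotides in KRAB members, 21 in other members and 7 over all promoters. None of the 6 motifs contains another. All promoters are those of 27025 genes, expressed here or not, whereas members were chosen for their level. Motif shares over expressed genes or over promoters of like CG content were not computed. Whether the higher motif shares are particular to Zfp genes was therefore not tested.

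The motif bound by Zfp143, itself a member of the family, stood in 4.49% of member promoters and 0.950% of all promoters. It was in 4 of 68 promoters of members that rose (5.88%) and 7 of 171 of members that did not pass the threshold (4.09%). The difference between these shares was not tested. Shown with 9 bases on either side are the sites of the 3 members that rose in Ednrb-/- explants, Zfp606, Zfp128 and Zfp454. Those of 2 highly expressed members that did not pass the test, Zfp358 and Zfp219, follow. The remaining sites, not shown, all lay in members that did not pass the test. Capitals mark the motif.
Zfp606, chr7:12478272-12478301, plus strand: ctctttgaaACTACAACTCCCaatagtcct
Zfp128, chr7:12881153-12881182, minus strand: gacactgagACTACAATTCCCagaaggcca
Zfp454, chr11:50887657-50887686, plus strand: gtggccgaaACTACAATTCCCagaaggctc
Zfp358, chr8:3493104-3493133, plus strand: ctcgagcgaACTACAAGTCCCagcagctcc
Zfp219, chr14:52019700-52019729, plus strand: tcacccgagACTACAAATCCCaggatgccc
The Zfp454 site lies in a pair of overlapping RefSeq promoter entries and is counted in both. A match is only a string of letters in this window, and binding was not measured.

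The libraries held 13022266 to 19532570 reads assigned to genes, recovered from the deposited FPKM and gene lengths. A member had between 16 and 6811 reads in a library, and 29 members had fewer than 100 in at least 1 library. Ednrb, the mutated gene, measured 5.89, 11.7, 7.83, 8.01 and 2.34 FPKM in Ednrb-/- replicates 1 to 5, against 55.6, 55.5, 45.8, 43.8 and 60.7 FPKM in WT replicates 1 to 5. The groups did not overlap, and the difference was −2.92 on the log2 scale (SE 0.31), with a 2-sided exact permutation p of 0.00794, the smallest that 252 assignments allow. Ednrb RNA was thus lower but not absent in Ednrb-/- explants, and the receptor protein was not measured. Differences were tested with limma on log2(FPKM + 0.5), with Benjamini-Hochberg adjustment over all 15156 genes tested and a threshold of 0.05. A log2 fold change is Ednrb-/- minus WT, and the added 0.5 makes it understate changes of low genes.

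Zfp genes rose in Ednrb-/- explants far more often than they fell. Of the 242 members, all of which were tested, 64 were higher in Ednrb-/- explants, 6 were lower and 172 did not pass the threshold. Over all genes tested, 6.53% were higher and 13.0% lower (19.5% in either direction), so the balance among members ran opposite to that of the transcriptome. Among protein-coding genes at the same level of at least 2 FPKM, 8.35% were higher and 14.9% lower (23.3% in either direction). Quantile normalization moved the split of calls over all genes to 1603 higher and 1730 lower, where it had been 990 and 1966, and that of members to 90 and 5.

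The typical rise was small. The median log2 fold change of the 242 members was 0.23, beside 0.0048 over all genes tested and 0.015 over protein-coding genes at 2 FPKM or more. Of the members, 177 had a value above 0, which is 73.1%, beside 50.7% of all genes tested. The 64 that rose had a median log2 fold change of 0.53, with 22 past 1.5-fold and 1 past 2-fold. Of the 6 that fell, 3 were past 2-fold. The 5 libraries of each genotype did not overlap for 52 members that were higher in Ednrb-/- explants and 3 that were lower, beside 4.78% and 8.44% of all genes tested and 6.13% and 9.67% of protein-coding genes at 2 FPKM or more. At an unadjusted p under 0.05, 98 members were higher and 13 lower. Leaving out WT replicate 3 reduced the calls to 39 higher and 2 lower, and the falls were 3 without Ednrb-/- replicate 5 or WT replicate 5. Over all genes tested, calls without WT replicate 3 were 513 higher and 1432 lower, where they had been 990 and 1966. Calls of 36 of the 64 rises and 2 of the 6 falls held with each of the 10 libraries left out in turn.

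**Figure D1:**
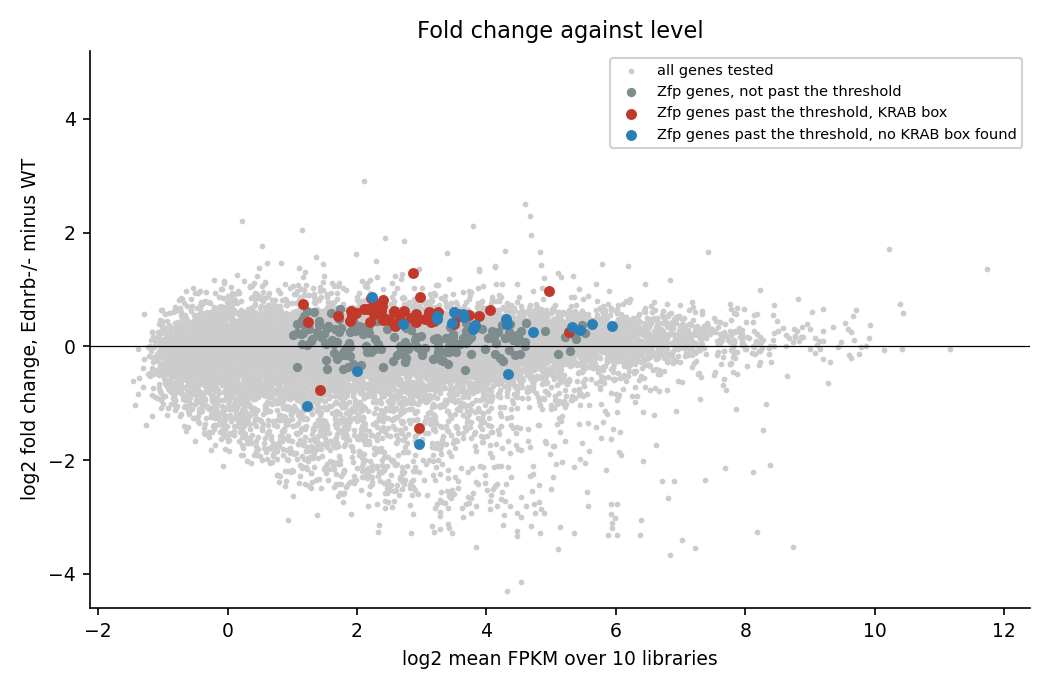
Log2 fold change (Ednrb-/- minus WT) against the log2 of the mean FPKM over 10 libraries, with each of the 15156 genes tested as a light point and the 242 Zfp genes drawn over them. Zfp genes past the threshold lie mostly above 0 (64 of 70), and only Zfp605 among the rises exceeds a log2 fold change of 1.

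Among members, the rise was seen across the range of levels. Among members with a mean of 2 to under 5 FPKM, 15 of 88 were higher and 3 lower, beside 3.73% higher and 20.3% lower of protein-coding genes in the same range. From 5 to under 10 FPKM, 27 of 68 were higher and 2 lower, beside 7.01% and 16.2%. From 10 to under 20 FPKM, 15 of 56 were higher and 0 lower, beside 8.34% and 13.7%. At 20 FPKM or more, 7 of 30 were higher and 1 lower, beside 12.8% and 11.1%. The levels of members ran from 2.02 to 61.4 FPKM with a median of 7.06. Just below the limit lay Zfp235, Zfp239 and Zfp449, with means of 1.93, 1.94 and 1.97 FPKM. Just above it lay Zfp551, Zfp839 and Zfp850, with 2.02, 2.10 and 2.11 FPKM. Of the 64 Zfp models under the limit, 38 were tested, of which 2 were higher (5.26%) and 0 lower. Their median log2 fold change was 0.10, and 6.53% of all genes tested were higher. The group mean was under 2 FPKM in Ednrb-/- explants for 3 members and in WT explants for 11, so these passed only through the group where they are high. They include the falls Zfp365 and Zfp809 and the rises Zfp661 and Zfp947, and without all such members 62 were higher and 4 lower.

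The largest rise was that of Zfp605 (MGP_C57BL6NJ_G0030308), a KRAB gene with 12 fingers on chromosome 5. It measured 12.4, 10.8, 7.37, 10.1 and 11.8 FPKM in Ednrb-/- replicates 1 to 5, against 6.0, 2.98, 3.89, 3.93 and 3.41 FPKM in WT replicates 1 to 5. Every Ednrb-/- library was above every WT library, and WT replicate 1 was the highest of its group. The log2 fold change was 1.29 (SE 0.18, limma adjusted p = 0.00276).

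Zfp811, a KRAB gene with 14 fingers, was the most abundant of the strong risers. It measured 30.1, 50.4, 36.2, 49.7 and 41.1 FPKM in Ednrb-/- explants, against 28.3, 17.9, 18, 19.6 and 20.3 FPKM in WT explants. The groups did not overlap, but Ednrb-/- replicate 1 and WT replicate 1 were close. The log2 fold change was 0.98 (SE 0.16, limma adjusted p = 0.00384).

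Some smaller rises were very even between libraries. Zfp882, a KRAB gene, measured 5.26, 5.46, 5.21, 5.26 and 5.69 FPKM in Ednrb-/- explants, against 3.36, 3.69, 2.80, 2.87 and 3.56 FPKM in WT explants. Zfp68, another KRAB gene, averaged 15.8 ± 1.00 FPKM in Ednrb-/- explants and 10.7 ± 0.86 FPKM in WT explants (SD, n = 5 each). Both pairs of groups were fully separate, with log2 fold changes of 0.65 and 0.54 and limma adjusted p of 0.00359 and 0.00310.

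Zfp60 measured 18.8, 22.2, 21.5, 18 and 20.8 FPKM in Ednrb-/- explants, against 13.2, 14.6, 9.75, 12.2 and 14.6 FPKM in WT explants, a log2 fold change of 0.65 (limma adjusted p = 0.00461). Zfp606 averaged 11.6 ± 1.61 FPKM in Ednrb-/- explants and 7.45 ± 0.80 FPKM in WT explants (SD, n = 5 each). Zfp189 averaged 6.16 ± 1.14 FPKM in Ednrb-/- explants and 3.43 ± 0.63 FPKM in WT explants, and Zfp647 averaged 17.6 ± 1.05 and 12.1 ± 1.93 FPKM in the same order (SD, n = 5 each). All 4 carry a KRAB box, did not overlap between genotypes and were called with each library left out in turn.

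The remaining genes among the 12 lowest p of the risers had no KRAB box found. Zfp711, an X-linked gene whose human counterpart is mutated in intellectual disability, averaged 11.03 ± 0.90 FPKM in Ednrb-/- explants and 7.80 ± 0.70 FPKM in WT explants (SD, n = 5 each, limma adjusted p = 0.00605). Zfp260, known from heart muscle as a partner of Gata4, measured 21.1, 26.3, 24.5, 21.1 and 22.3 FPKM in Ednrb-/- explants, against 15.3, 17.8, 13.7, 16.7 and 18.1 FPKM in WT explants. Zfp105 averaged 13.8 ± 1.35 FPKM in Ednrb-/- explants and 8.93 ± 1.41 FPKM in WT explants, and Zfp62, which has 26 fingers, averaged 14.9 ± 2.00 and 10.2 ± 0.95 FPKM in the same order (SD, n = 5 each). In each of these 4 genes the lowest Ednrb-/- library was above the highest WT library.

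Of the 6 members that fell, Zfp36 and Zfp568 fell most. Zfp36, the messenger RNA decay factor and an immediate early gene, measured 4.34, 2.01, 2.38, 6.27 and 1.74 FPKM in Ednrb-/- explants, against 11.5, 4.36, 19.2, 14.2 and 11.6 FPKM in WT explants. WT replicate 2 lay below Ednrb-/- replicate 4, so the groups overlapped. The log2 fold change was −1.72 (SE 0.39, limma adjusted p = 0.0112).

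Zfp568 is a KRAB gene that silences a placental transcript of Igf2 and is needed by the mouse embryo. It measured 3.90, 4.14, 3.32, 4.86 and 2.91 FPKM in Ednrb-/- explants, against 8.68, 6.64, 17.9, 11.6 and 14 FPKM in WT explants. The groups did not overlap and the WT libraries spread widely, with replicate 3 highest and replicate 2 lowest. The log2 fold change was −1.44 (SE 0.24, limma adjusted p = 0.00348).

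Zfp809, a KRAB gene that recognises the primer binding site of murine leukaemia viruses and silences their proviruses, measured 2.25, 0.93, 1.77, 2.27 and 2.26 FPKM in Ednrb-/- explants, against 3.62, 3.56, 4.22, 3.14 and 2.91 FPKM in WT explants. The groups did not overlap, but the gene had only 16 to 88 reads in a library, and the call (limma adjusted p = 0.0205) was lost without WT replicate 3. Zfp365, the gene of a centrosomal and neurite-linked protein, averaged 1.27 ± 0.36 FPKM in Ednrb-/- explants and 3.41 ± 1.60 FPKM in WT explants (SD, n = 5 each, limma adjusted p = 0.0316). Zfp703, a repressor of the same small family as Zfp503, averaged 16.8 ± 3.43 FPKM in Ednrb-/- explants and 23.4 ± 2.08 FPKM in WT explants (SD, n = 5 each, limma adjusted p = 0.0291). Zfp217, part of a CtBP co-repressor complex, averaged 3.32 ± 0.27 FPKM in Ednrb-/- explants and 4.66 ± 0.74 FPKM in WT explants (SD, n = 5 each, limma adjusted p = 0.0360). The call of Zfp365 was lost without Ednrb-/- replicate 1, 3 or 5 or WT replicate 3, 4 or 5, and that of Zfp703 without Ednrb-/- replicate 2 or 5 or WT replicate 3 or 5. The call of Zfp217 was kept only without Ednrb-/- replicate 4 or WT replicate 1.

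**Figure D2:**
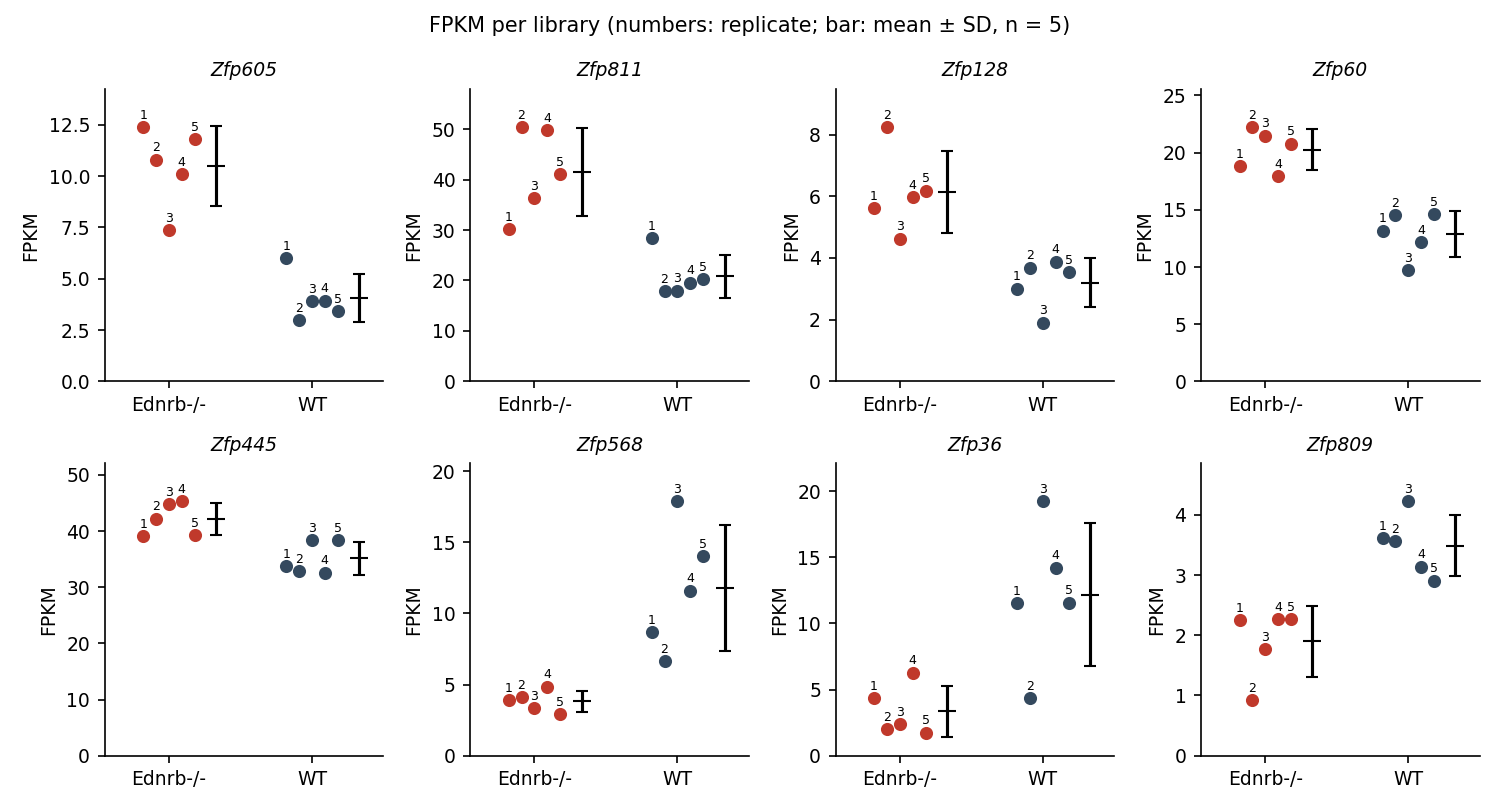
FPKM of 8 Zfp genes in each library, with numbered points for replicates and bars for the mean ± SD (n = 5 per genotype). Zfp605, Zfp811, Zfp128, Zfp60 and Zfp445 are higher in every Ednrb-/- library than in any WT library, Zfp568 and Zfp809 lower, and Zfp36 is lower on average with WT replicate 2 inside the range of the Ednrb-/- libraries.

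Among the 8 most abundant members, 3 rose. Zfp146, which consists almost wholly of fingers, was the highest and averaged 68.9 ± 6.51 FPKM in Ednrb-/- explants and 53.8 ± 6.77 FPKM in WT explants (SD, n = 5 each). Its call (limma adjusted p = 0.0308) was kept only without Ednrb-/- replicate 4 or WT replicate 1 or 2. Zfp821 measured 55.0, 55.7, 58.1, 56.1 and 57.3 FPKM in Ednrb-/- explants, against 42.4, 53.4, 38.6, 42.7 and 38.9 FPKM in WT explants. The groups were separate, with WT replicate 2 close below the lowest Ednrb-/- library (log2 fold change 0.39, limma adjusted p = 0.0122).

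Zfp207, a spindle protein that brings Bub3 to kinetochores, measured 45.7, 49.6, 44.9, 53.6 and 46.0 FPKM in Ednrb-/- explants, against 39.2, 39.1, 38.2, 40.9 and 37.7 FPKM in WT explants. It rose by a log2 fold change of 0.29 (limma adjusted p = 0.0147). The other 5 of the 8 most abundant did not pass the test: Zfp41, Zfp428, Zfp706, Zfp358 and Zfp219 had log2 fold changes between 0.13 and 0.37. For Zfp41, WT explants spread widely, with 49.9 ± 4.15 FPKM in Ednrb-/- explants and 39.6 ± 11.5 FPKM in WT explants (SD, n = 5 each).

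KRAB genes made up most of the rise. Among the 125 members with a KRAB box, 47 were higher in Ednrb-/- explants and 2 lower, and among the 117 others 17 were higher and 4 lower. These are 37.6% and 14.5% higher, beside 6.53% of all genes tested. The median log2 fold change was 0.36 in KRAB members and 0.040 in the others, and 110 of 125 and 67 of 117 had values above 0. KRAB genes were 51.7% of the members and 73.4% of those that rose. Their levels were lower, with a median of 5.03 FPKM against 11.1 FPKM for the others. The difference between these subgroups was not tested. Without WT replicate 3 the KRAB members that rose numbered 28, without WT replicate 4 or 5 they numbered 31 and 30, and without Ednrb-/- replicate 3 or 5 they numbered 31 each. Over all genes tested, the same omissions left 513 to 586 genes higher, where there had been 990.

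The share of KRAB genes that rose was alike under each way of finding the box, while their number changed. With the deposited Pfam entry alone, 33 of 88 were higher and 2 lower, and with the reading frame pattern alone, 41 of 109 were higher and 1 lower. Genes with a KRAB box by Pfam entry but another kind of name had 7 of 19 higher, 0 lower and 18 of 19 above 0. Other families of C2H2 fingers at 2 FPKM or more are given for comparison, without a test. The deposited zf-C2H2 family held 122 such genes with other names, a set that can share genes with the families below. Of these 122, 13 were higher (10.7%) and 16 lower (13.1%), with a median log2 fold change of 0.072. Of 33 Zbtb genes, which pair fingers with a BTB domain, 5 were higher and 2 lower, and 18 had values above 0. Of 18 Zscan and Zkscan genes, with a SCAN domain, 2 were higher and 0 lower. Of these 18, 15 had values above 0, with a median of 0.18, beside 0.23 for the 242 members. They were not kept apart from the 19 KRAB genes with other names, so the 2 sets can share genes. Of 11 Klf genes, 0 were higher and 5 lower, and 1 had a value above 0. Of 5 Zic genes, which act in neural crest and dorsal neural tube, 0 were higher, 2 lower and 0 above 0.

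**Figure D3:**
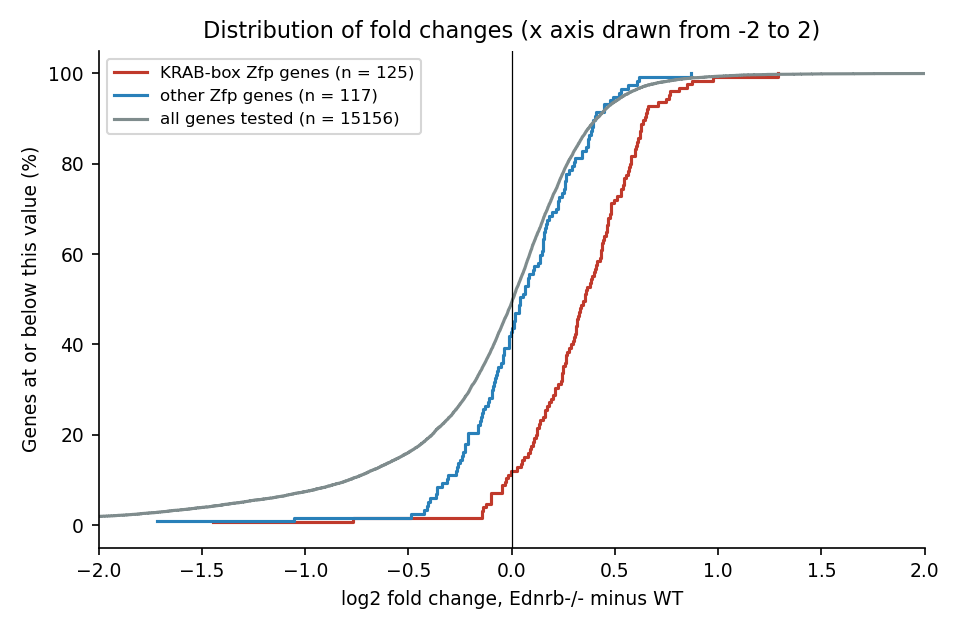
Cumulative share of genes (percent) at or below each log2 fold change (Ednrb-/- minus WT) for 125 KRAB-box Zfp genes, 117 other Zfp genes and all 15156 genes tested. The KRAB curve lies to the right, with a median of 0.36, and the curve of the others has a median of 0.040, beside 0.0048 for all genes.

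The number of fingers ran beside the KRAB box. KRAB members had a median of 12 fingers (2 to 33) and the others 8 (0 to 37). Of members with 0 to 4 fingers, 3 of 40 were higher and 3 lower, of those with 5 to 9, 16 of 68 were higher and 2 lower, of those with 10 to 14, 31 of 87 were higher and 1 lower, and of those with 15 or more, 14 of 47 were higher and 0 lower. Within KRAB members, 0 of 5 rose at 0 to 4 fingers, 13 of 33 at 5 to 9, 22 of 56 at 10 to 14 and 12 of 31 at 15 or more. Among the others, 3 of 35, 3 of 35, 9 of 31 and 2 of 16 rose in the same order of finger number. Differences between these bins were not tested.

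Summed over members, the KRAB genes separated the genotypes. Their summed level was 890.5, 972.6, 946.8, 944.8 and 971.3 FPKM in Ednrb-/- replicates 1 to 5, against 762.9, 739.8, 691.9, 728.3 and 733.0 FPKM in WT replicates 1 to 5. The lowest Ednrb-/- library was above the highest WT library. The sum of the other members was 1809, 1726, 1723, 1756 and 1737 FPKM in Ednrb-/- explants, against 1502, 1844, 1530, 1568 and 1612 FPKM in WT explants. Here WT replicate 2 was the highest of all 10 libraries, and the groups overlapped.

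Markers of other cell types moved with genotype as well. Of 11 neuron markers tested, 10 rose, and their summed level was 1773 to 2029 FPKM in Ednrb-/- explants and 1097 to 1421 FPKM in WT explants. Of 7 smooth muscle and myofibroblast markers tested, 7 fell, with a summed level of 43.1 to 274.6 FPKM in Ednrb-/- explants and 317.2 to 2453 FPKM in WT explants. Of 8 fibroblast-like markers tested, 8 fell, of 6 melanocyte markers 5 fell, and of 6 peripheral glia markers 6 fell. The summed level of melanocyte markers was 10.5 to 14.9 FPKM in Ednrb-/- explants and 37.7 to 152.5 FPKM in WT explants. Of 8 neural tube progenitor markers, Fabp7 rose, Nes fell and 6 did not pass the test. Of the macrophage markers Cd68 averaged 1.21 FPKM in Ednrb-/- explants and 1.57 FPKM in WT explants and did not pass the test, and the others were near 0. Red blood cell markers were below the filter for testing, with Hba-a1 and Hbb-y at 0 in all 10 libraries. Of the endothelial markers Kdr fell and the other 3 were below the filter for testing. The part of these shifts in the Zfp result was not tested.

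**Figure D4:**
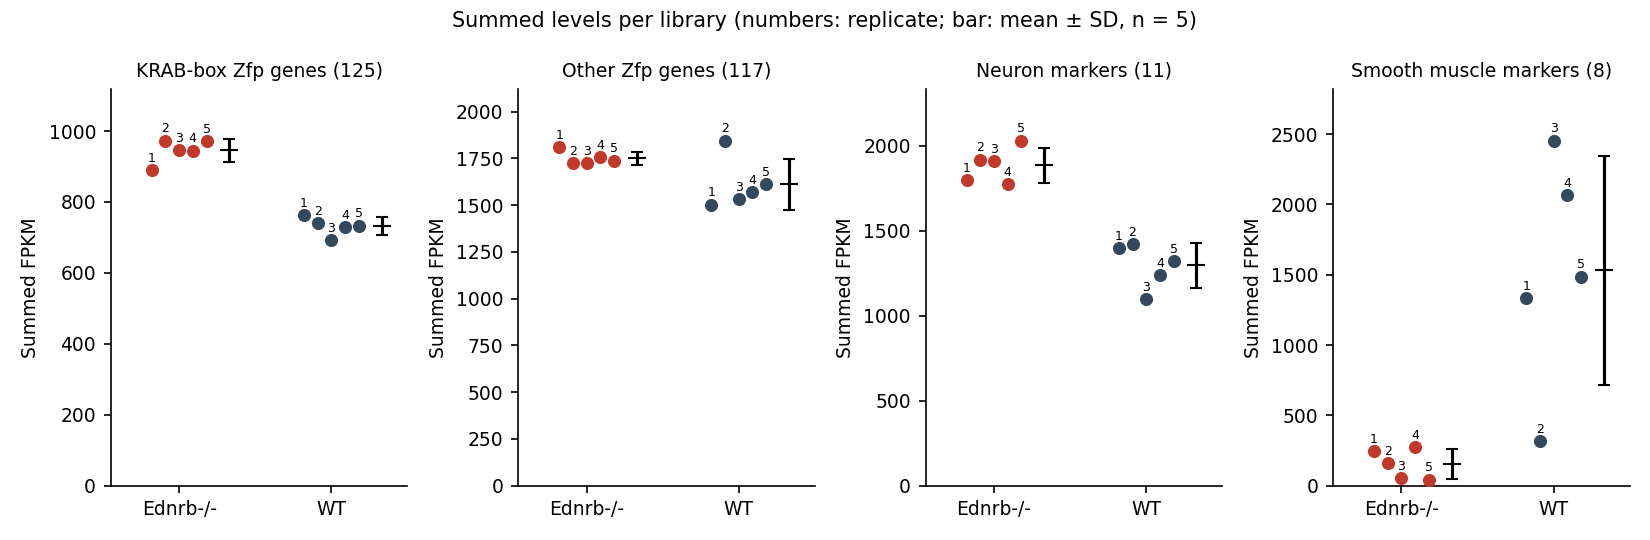
Summed FPKM per library of 125 KRAB-box Zfp genes, 117 other Zfp genes, 11 neuron markers and 8 smooth muscle markers, with numbered points for replicates and bars for the mean ± SD (n = 5 per genotype). The KRAB sums are 890.5 to 972.6 FPKM in Ednrb-/- explants and 691.9 to 762.9 FPKM in WT explants, and the sums of the other Zfp genes overlap.

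Members with known targets did not share a direction. Of 8 listed silencers with known repeat or imprint targets, 5 were members, of which Zfp445 and Zfp661 rose and Zfp568 and Zfp809 fell. These are 40.0% higher and 40.0% lower of only 5 genes, beside 6.53% and 13.0% of all genes tested. Zfp445, which with Zfp57 keeps imprints in the early embryo, measured 39.1, 42.2, 44.7, 45.3 and 39.3 FPKM in Ednrb-/- explants, against 33.8, 32.9, 38.4, 32.6 and 38.4 FPKM in WT explants. The groups did not overlap by a narrow margin, and the call (limma adjusted p = 0.0448) was kept only without Ednrb-/- replicate 1 or WT replicate 3. Zfp661 averaged 2.78 ± 0.34 FPKM in Ednrb-/- explants and 1.93 ± 0.28 FPKM in WT explants (SD, n = 5 each), and its call (limma adjusted p = 0.0461) was kept only without Ednrb-/- replicate 4. Zfp57 did not pass the test (limma adjusted p = 0.315) and ran from 26.3 to 40.0 FPKM in Ednrb-/- explants, against 19.9 to 34.5 FPKM in WT explants.

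Of 14 listed developmental and neural factors, 11 were members, of which Zfp711 rose and Zfp703 fell. Zfp292 had a log2 fold change of 0.25 and Zfp110, a partner of the neurotrophin receptor p75, of 0.32, and neither passed the test. Of 19 promoter and chromatin regulators, all members, Zfp410, an activator of Chd4, rose and Zfp217 fell. Zfp410 averaged 28.8 ± 0.86 FPKM in Ednrb-/- explants and 24.1 ± 2.45 FPKM in WT explants (SD, n = 5 each), and its call (limma adjusted p = 0.0453) was kept only without WT replicate 2. Of 13 RNA, ribosome and spindle proteins, 12 were members, of which Zfp207 and Zfp638 rose and Zfp36 fell. Zfp638, an RNA-binding nuclear protein, averaged 15.3 ± 0.89 FPKM in Ednrb-/- explants and 12.3 ± 0.72 FPKM in WT explants (SD, n = 5 each, limma adjusted p = 0.0179), and its call was lost without WT replicate 4. The list of cytoskeleton and matrix proteins held 2 genes, neither of them a member. The shares higher and lower were 9.09% each for developmental and neural factors and 5.26% each for promoter and chromatin regulators. For RNA, ribosome and spindle proteins they were 16.7% and 8.33%. Over all genes tested, 6.53% were higher and 13.0% lower. The lists are short, and a difference of any role from all genes was not tested.

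Of 28 listed genes of the co-repressor machinery through which KRAB proteins act, 25 were found in the table, of which 3 rose and 0 fell. The share that rose, 12%, stood beside 6.53% of all genes tested and 12.8% of protein-coding genes at 20 FPKM or more, so it is close to the background of abundant genes. Trim28, which binds the KRAB box, averaged 157.7 ± 14.8 FPKM in Ednrb-/- explants and 177.7 ± 50.4 FPKM in WT explants (SD, n = 5 each), and did not pass the test (limma adjusted p = 0.606). The histone deacetylase Hdac2 averaged 126.7 ± 14.5 FPKM in Ednrb-/- explants and 88.0 ± 7.43 FPKM in WT explants (SD, n = 5 each, limma adjusted p = 0.00484). The HP1 protein Cbx3 averaged 47.2 ± 5.22 FPKM in Ednrb-/- explants and 34.0 ± 3.59 FPKM in WT explants (SD, n = 5 each, limma adjusted p = 0.00971). Smarcad1, a chromatin remodeller that binds Trim28, rose by a log2 fold change of 0.26 (limma adjusted p = 0.0295), a call kept in 3 of the 10 fits that left out 1 library. Mphosph8, of the HUSH silencing complex, had a log2 fold change of 0.29 and just missed the threshold (limma adjusted p = 0.0509).

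On the chromosomes, 118 of the 242 members lay in 21 clusters. A cluster is a run of Zfp-numbered protein-coding models, at any level, whose successive starts are at most 500 kb apart. It had to hold at least 3 members. Positions are those of the C57BL/6NJ assembly used by the deposited table. In clusters, 36 members were higher and 3 lower, and outside them 28 of 124 were higher and 3 lower. Among KRAB members the share that rose was 35.7% inside clusters (30 of 84) and 41.5% outside (17 of 41). Rises lay on 15 of 20 chromosomes. Of the 21 clusters, 17 held at least 1 member that rose and 17 had a median above 0. In 9 the summed FPKM did not overlap between genotypes. Over all 242 members, 26.4% were higher, 73.1% had values above 0, and 21.5% were higher without overlap. Over all genes tested these shares were 6.53%, 50.7% and 4.78%. Like counts for sets of members outside clusters were not made, so these do not describe clusters as such. Of the 129 other genes tested within cluster bounds, 9 were higher and 7 lower. Of these, 23 were zinc finger or KRAB genes, with 2 higher, 0 lower and a median log2 fold change of 0.22. Among the 106 that were neither, 7 were higher and 7 lower (6.60% each), with a median of 0.036. Over all genes tested, 6.53% were higher and 13.0% lower.

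The cluster with the highest median log2 fold change was on chromosome 13, at chr13:69490573-70402726, where all 5 members had values above 0. Zfp87, Zfp748 and Zfp65 rose, and the median was 0.61. The call of Zfp748 was lost without WT replicate 3, and that of Zfp65 was kept only without Ednrb-/- replicate 1 or 4 or WT replicate 5. Zfp87 measured 9.20, 12.1, 10.7, 8.47 and 10.8 FPKM in Ednrb-/- explants, against 6.06, 5.84, 2.80, 6.19 and 6.80 FPKM in WT explants. The groups did not overlap, and WT replicate 3 was far below its group.

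Chromosome 17 held a pair of large clusters. At chr17:20772035-22073885 all 12 members carry a KRAB box, 11 had values above 0, and Zfp946, Zfp994, Zfp758, Zfp943 and Zfp947 rose, with log2 fold changes of 0.54 to 0.75. Zfp943 and Zfp947 overlap each other on opposite strands, and Zfp947 and Zfp994 overlap on the same strand. Whether reads were counted by strand was not given, and strand would not separate Zfp947 from Zfp994. Reads in these overlaps cannot be assigned with certainty. The calls of Zfp758, Zfp943 and Zfp947 were lost without WT replicate 2, 3, 4 or 5 and without some Ednrb-/- libraries. At chr17:33752925-34781013, which holds Zfp811, 5 of 11 members rose: Zfp811, Zfp563, Zfp952, Zfp763 and Zfp799. The calls of Zfp952, Zfp763 and Zfp799 were lost without WT replicate 5 and without Ednrb-/- replicate 3 or 5, among others. The summed level there was 100.9 to 113.5 FPKM in Ednrb-/- explants and 72.6 to 87.6 FPKM in WT explants.

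On chromosome 7, the cluster at chr7:10357627-10919534 had 7 members, all with values above 0, of which Zfp606, Zfp128 and Zfp329 rose, the call of Zfp329 being kept only without Ednrb-/- replicate 1. Zfp128 measured 5.61, 8.24, 4.62, 5.97 and 6.18 FPKM in Ednrb-/- explants, against 3.01, 3.68, 1.90, 3.88 and 3.55 FPKM in WT explants, without overlap. The cluster at chr7:29618530-30077906 showed both directions: of 13 members, Zfp940, Zfp383, Zfp14, Zfp260 and Zfp146 rose and Zfp568 fell. Zfp383 and Zfp14, KRAB genes on either side of Zfp568 along the chromosome, had log2 fold changes of 0.44 and 0.71, beside −1.44 for Zfp568.

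Of the other clusters, 12 held 1 or 2 members that rose and 3 held no member past the threshold. In the cluster of chromosome 6 (chr6:47744386-48691524), 6 of 9 members carry a KRAB box, none passed the threshold, and the median log2 fold change was −0.0019, with values from −0.14 to 0.24. Its summed level was 55.8 to 61.7 FPKM in Ednrb-/- explants and 53.2 to 68.5 FPKM in WT explants. In the cluster at chr7:1932981-2089618, 0 of 6 members carry a KRAB box, 0 passed the threshold, and 3 had values above 0. In the cluster at chr7:136677704-137417526, 2 of 8 members carry a KRAB box and 0 passed the threshold. In the small cluster of chromosome 9 at chr9:20113644-20387327, Zfp809 fell and neither of its neighbours Zfp653 and Zfp810 passed the test.

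**Figure D5:**
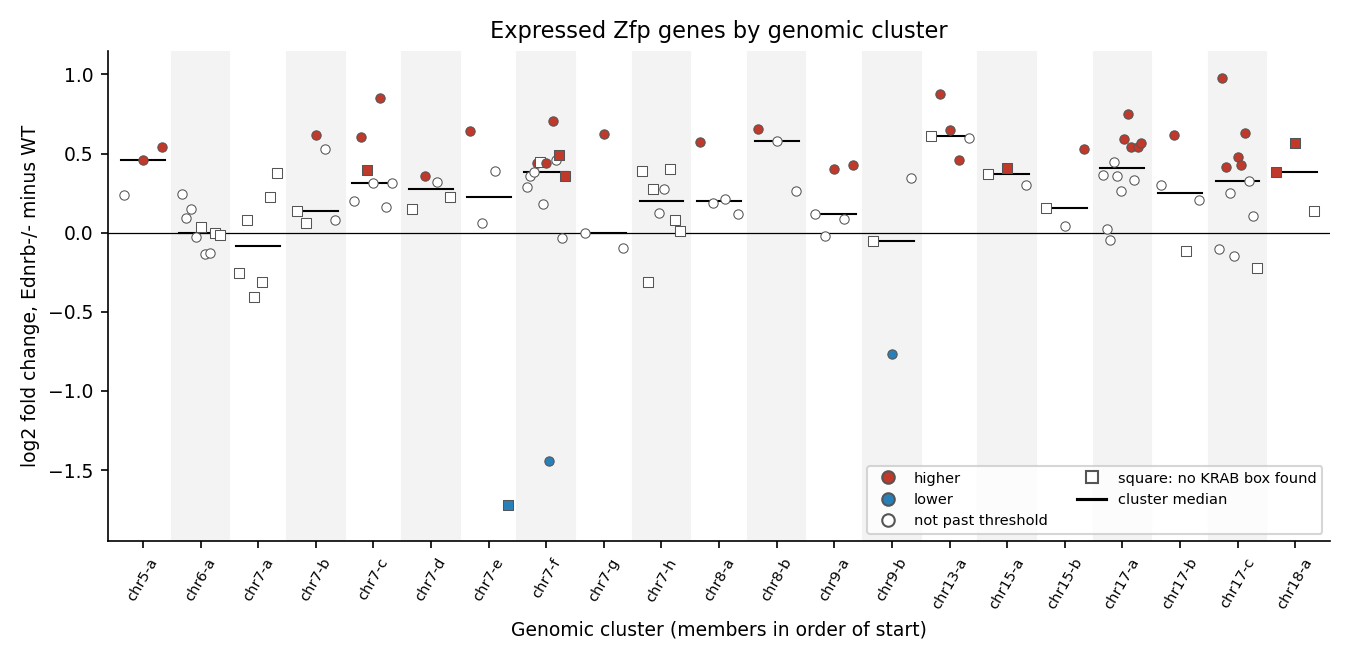
Log2 fold change (Ednrb-/- minus WT) of the 118 members in 21 genomic clusters, in order of start within each cluster, with circles for KRAB genes, squares for members with no KRAB box found, and a line at the cluster median. Medians lie above 0 in 17 clusters, the cluster of chromosome 6 is centred near 0, and Zfp568 and Zfp36 are the low points on chromosome 7.

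Reads can be shared between members. In 59 members at least 1 window of 75 bases also occurred in another gene, and in 5 of them (Zfp653, Zfp414, Zfp617, Zfp524 and Zfp963) this was over 20% of windows. A gene model on the other strand overlapped 58 members, of which 19 had such a partner at 2 FPKM or more. Overlaps on the same strand, such as that of Zfp947 and Zfp994, are not in these counts. The read length and the use of strand in counting were not given, so values of these members are less certain.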

How the data were processed

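RNA from 10 libraries, 5 Ednrb-/- and 5 WT, was analysed from the FPKM per gene that the authors deposited. Per the submitters' processing notes, the tools were fastp, HISAT2 2.0.5 and featureCounts 1.5.0-p3 with the build mm10, whereas the deposited table carries C57BL/6NJ gene IDs and coordinates. FPKM times gene length gave whole reads in 100% of values within 0.01, which gave the depth. Genes with at least 0.5 FPKM in at least 5 libraries were tested on log2(FPKM + 0.5) with limma 3.58.1 (trended prior, 2-sided) in R 4.3.3, without a replicate term. The code was tested on simulated data. There it recovered 26.9% of 1.5-fold, 56.7% of 2-fold and 81.8% of 4-fold changes, with 3 false calls. Small changes were thus often missed, so a gene that did not pass the threshold can still differ between genotypes.

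The members and gene lists were chosen with earlier results of these data known. Genes named in the text are the 12 lowest p among members that passed the threshold in each direction, the 8 highest means, the 3 on either side of the level limit, up to 4 lowest p of each role list, every called member of clusters with at least 3 calls, and the 4 lowest p of the co-repressor list. Zfp454, Zfp57, Trim28, Zfp810 and the genes named for shared windows or a lack of fingers were named outside that rule, after their values were seen. The design had set a protein search for KRAB boxes; the reading frames of GENCODE M21 transcripts were searched instead. The labels call replicates biological without naming litters. Alternatives tried were other pseudocounts, filters, scalings, weights, level limits, KRAB definitions, leaving out members with uncertain reads or under the limit in 1 group (chosen after the data were seen, as were the KRAB definitions), a count-based fit, a replicate block and leaving out each library.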

Additional observations from a re-analysis of the deposited data

Results flagged for a closer look

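In 7 of 132 groups of 5 libraries checked, 1 library stood apart from the other 4 by more than Dixon's 95% critical value for such a group. Chance flags about 1 in 20 groups. Zfp811 was high in WT replicate 1, at 28.3 FPKM. Zfp87 was low in WT replicate 3, at 2.80 FPKM. Zfp748 was high in Ednrb-/- replicate 2, at 8.32 FPKM, while Zfp952 was low in Ednrb-/- replicate 2, at 5.15 FPKM, and Zfp551 was low there, at 0.524 FPKM. Zfp239, just below the level limit, was high in Ednrb-/- replicate 3, at 2.63 FPKM. The summed level of all members was low in Ednrb-/- replicate 3, at 2670 FPKM, although this group spans only 2670 to 2708 FPKM.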

How the results depend on the processing

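None of 62 named genes changed sign past the threshold in any of 20 refits, but calls were lost. Of the 45 called, 22 were lost with a replicate block, 13 with no filter on low values and 7 after TPM rescaling. Leaving out single libraries lost 5 to 16. Calls were also gained, 4 with quantile normalization, 4 without WT replicate 2 and 3 with array weights. Members higher and lower in Ednrb-/- explants numbered 64 and 6, and 56 and 6 after TPM rescaling, 47 and 3 with no filter on low values, 87 and 10 with array weights, 68 and 7 with voom on recovered reads, and 49 and 3 at a mean of at least 5 FPKM. Leaving out single libraries gave 39 to 70 higher and 2 to 9 lower (39 and 2 without WT replicate 3), 28 to 47 KRAB members higher and 1 to 2 lower, and a median log2 fold change of 0.185 to 0.240. KRAB members lower numbered 2, but 1 at a mean of at least 5 FPKM and 1 with the reading frame pattern alone. With a replicate block, 29 members were higher and 3 lower, and 22 KRAB members were higher and 1 lower. Over all genes tested, 990 were higher and 1966 lower. These counts became 419 and 1458 with a replicate block, and 818 and 1923 after TPM rescaling. They became 659 and 1882 of 28144 genes with no filter on low values. With array weights they were 1684 and 2597, and with voom 999 and 1984. Leaving out single libraries gave 513 to 1150 higher and 1432 to 2126 lower. Same-numbered libraries did not resemble each other. Correlations of their deviations from the group means were −0.033, 0.015, −0.15, 0.15 and −0.16, and none correlated best with its own number. A small effect shared by a pair could be missed this way, so pairing is not excluded. The cause of the changes in counts was not tested. KRAB counts at a mean of at least 1 FPKM were not run. Depth limits the low members, with as few as 16 reads in a library.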
